A study of Mus musculus with 60 samples.

Results

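The Arf and p53 axis was followed through 10 genes chosen by name: Cdkn2a, which encodes Arf, Trp53, the p53 regulators Mdm2 and Mdm4, and the p53 target genes Cdkn1a, Ccng1, Bbc3, Pmaip1, Bax and Sesn2. Every probe set whose annotation names 1 of these genes alone was taken, which gave 17 probe sets for 8 genes, out of 18194 genes named on the array. No probe set in the annotation used here names Trp53 or Bax alone, and both are not analysed here. Probe sets annotated with more than 1 gene were not used. All 8 measured genes passed the filter on dim probe sets and are among the 12599 genes tested. Cdkn2a passed it through lymphomas alone, since every normal tissue read it below the median of its own array. Each gene is represented by its brightest probe set, and the remaining ones are given beside it.

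The arrays were Affymetrix Mouse430_2 arrays of total RNA from 60 snap-frozen tissues. The 50 lymphomas came from Em-myc transgenic mice, in which the immunoglobulin heavy chain enhancer drives Myc in B-lineage cells. The 25 early lymphomas arose at 32 to 76 days of age and the 25 late lymphomas at 253 to 649 days. The 10 normal tissues came from wild-type mice without the transgene: 6 lymph nodes of young mice (38 to 73 days), and 3 lymph nodes and 1 spleen of old mice (304 to 438 days). Transgene and tumour cannot be told apart in a comparison with normal tissue, since the wild-type mice lack both. The labels give 1 tumour or tissue per array and do not say which arrays share a litter, a day or a batch, so each p-value is set against sample-to-sample spread that may be technical in part. In bulk tissue, fewer cells of a type and less RNA per cell cannot be told apart.

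In normal cells a strong Myc signal raises Arf, a small nucleolar protein that binds Mdm2 and keeps it from p53. Mdm2 is the ubiquitin ligase that marks p53 for destruction, Mdm4 is its relative that masks the transactivation domain of p53, and Mdm2 is itself a p53 target. Freed p53 switches on genes that stop the cell cycle, kill the cell or temper stress, and loss of Arf or p53 or excess of Mdm2 is a classical event in lymphomas driven by this transgene. Because functional p53 represses Arf, a high Arf transcript is known to accompany a lost p53 pathway in many tumour cells. None of these events was measured here, since the arrays read transcript levels only.

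Cdkn2a has 2 transcription starts, shown here because the array holds a single probe set for both products. The upstream start gives Arf, and the downstream start, 12427 bases away, gives the Cdk inhibitor p16 from a different first exon and shared later exons. The annotation used here does not place the probes, so the signal is called Cdkn2a and is not assigned to either product. The 250 bases before each start follow, from RefSeq promoters on GRCm38.p6, minus strand, at chr4:89294620-89294869 for the upstream start and chr4:89282193-89282442 for the downstream one.
Cdkn2a upstream start: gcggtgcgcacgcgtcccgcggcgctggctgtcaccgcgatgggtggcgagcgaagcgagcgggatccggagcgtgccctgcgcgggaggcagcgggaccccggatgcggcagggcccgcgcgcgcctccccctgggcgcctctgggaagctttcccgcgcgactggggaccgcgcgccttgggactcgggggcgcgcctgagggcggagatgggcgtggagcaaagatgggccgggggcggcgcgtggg
Cdkn2a downstream start: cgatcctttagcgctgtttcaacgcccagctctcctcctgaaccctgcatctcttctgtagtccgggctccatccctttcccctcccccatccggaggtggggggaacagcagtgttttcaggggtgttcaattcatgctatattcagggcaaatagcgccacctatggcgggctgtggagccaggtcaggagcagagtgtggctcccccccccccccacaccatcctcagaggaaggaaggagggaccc
Both were searched on both strands for the p53 half-site and for the E-box CACGTG, a Myc binding sequence, each of which reads the same on both strands, and neither sequence held a match. The upstream sequence held 40 CG pairs at 78.4% G and C, and the downstream one 7 CG pairs at 60%.

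Cdkn1a is the classical p53 target, and 1 of its 2 start windows was the only one among 14 windows of 9 genes on the list (Trp53 and Bax included) to hold a full p53 site, taken as 2 half-sites with at most 13 bases between them. That start lies 2790 bases upstream of the second Cdkn1a start. The 250 bases before it lie at chr17:29090729-29090978, plus strand, and both half-sites are in capitals.
Cdkn1a upstream start: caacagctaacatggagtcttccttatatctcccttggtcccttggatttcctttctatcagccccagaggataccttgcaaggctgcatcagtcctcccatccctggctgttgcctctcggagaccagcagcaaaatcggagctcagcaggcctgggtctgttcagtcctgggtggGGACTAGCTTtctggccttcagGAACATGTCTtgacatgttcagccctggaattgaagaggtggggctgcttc
The half-sites begin 73 and 51 bases before the start. A full site was present in 0.0731% of 32851 windows, each running from 250 bases before to 50 after an annotated start. A half-site was present in 8.36% of these windows and in 5 of the 14, which are those of Trp53, Mdm2, Cdkn1a, Bax and Ccng1. An E-box was present in 7.15% of all windows and in 3 of the 14. These are matches of letters in a short window, and no binding was measured.

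Cdkn2a was the most variable gene of the list in the lymphomas and was higher than in normal tissue in the late group. All levels are log2(intensity + 15.7), the deposited intensity plus a small constant, so a change of 1 is a doubling and changes of dim genes are understated. Cdkn2a read 6.05 at the lowest, 7.16 at the median and 7.66 at the highest in the 10 normal tissues. It read 6.37, 7.44 and 11.19 in the 25 early lymphomas, and 6.13, 8.03 and 11.31 in the 25 late ones. Of the early lymphomas 10 lay above every normal tissue, from 7.91 upward, and of the late lymphomas 14 did, from 7.93 upward. The others lay inside the normal range, and none lay below it. The lower edge of that range, 6.05, is the spleen, and the lowest lymph node read 6.87. Early lymphomas 4, 8, 13, 15 and 26 and late lymphomas 112, 118, 126 and 133 lay below every lymph node, at 6.13 to 6.85. The highest and lowest tumours differed 28.1-fold among early and 36.3-fold among late lymphomas.

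**Figure D1:**
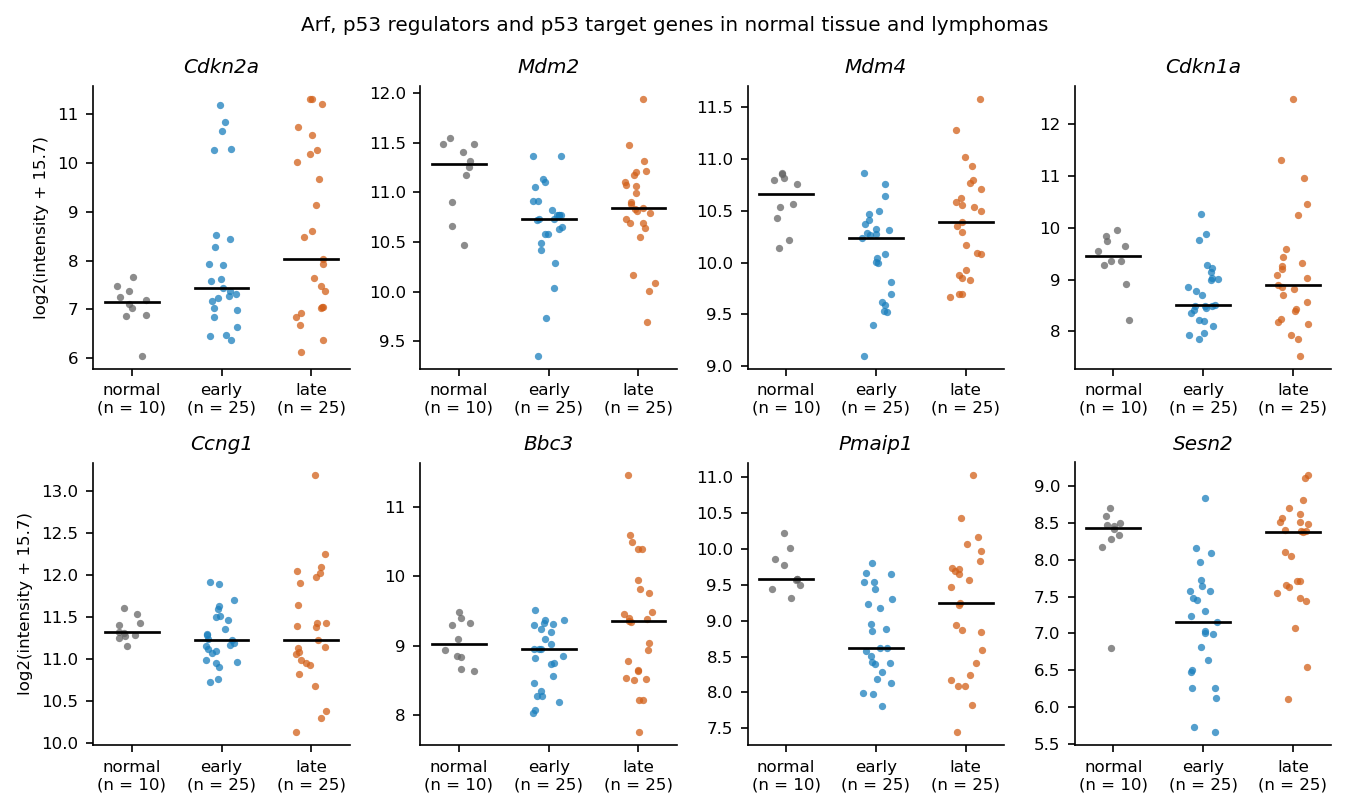
Level of each measured gene, as log2(intensity + 15.7), in 10 normal tissues, 25 early and 25 late lymphomas. Each point is 1 array and each bar is the group median. Cdkn2a reaches 11.19 in early and 11.31 in late lymphomas against at most 7.66 in normal tissue, and Sesn2 has a median of 7.16 in early against 8.38 in late lymphomas.

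The mean of Cdkn2a was 1.47 ± 0.53 higher (SE, log2) in late lymphomas than in normal tissue (2.77-fold, adjusted p = 0.018). In early lymphomas it was 0.91 ± 0.45 higher, which missed the threshold of 0.05 (adjusted p = 0.071). That early value passed after quantile normalization (1.20, adjusted p = 0.014), after centring each array on its median (1.25, adjusted p = 0.014) and with RNA quality ratios as covariates (1.09, adjusted p = 0.041). Late and early lymphomas differed by 0.56 ± 0.44 (adjusted p = 0.37), well inside the spread of either group. With the 4 old normal tissues alone as controls the late value was 1.42 (adjusted p = 0.19). Every normal tissue read Cdkn2a below the median of its own array, at intensities of 51 to 186 against array medians of 183 to 198. The baseline of these differences is therefore dim. Without the filter on dim probe sets the late value was also called (1.47).

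The early lymphomas fell apart at a gap of 1.75 in Cdkn2a. Above it lay 5 tumours, early lymphomas 6 (11.19), 29 (10.84), 23 (10.66), 28 (10.28) and 20 (10.27). The other 20 reached at most 8.52. The late lymphomas showed no such break: their largest gap was 0.54, with 15 tumours up to 8.61 and 10 from 9.15 upward. The wider spread of Cdkn2a in late lymphomas did not pass the test (difference in absolute deviation from the group median 0.43 ± 0.32, adjusted p = 0.40).

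Both regulators fell in early lymphomas against normal tissue by their brightest probe set and were called in neither other comparison. Mdm2 read 10.47, 11.29 and 11.55 at the lowest, median and highest of normal tissue. It read 9.35, 10.74 and 11.37 in early lymphomas, and 9.70, 10.84 and 11.94 in late ones. The ranges overlapped widely, and 23 of 25 early and 22 of 25 late lymphomas lay below the normal median. Mdm2 fell by 0.50 ± 0.16 in early lymphomas against normal tissue (adjusted p = 0.0044) and was -0.34 ± 0.17 apart in late ones (adjusted p = 0.089), which passed after quantile normalization (-0.45, adjusted p = 0.025). Late minus early was 0.17 ± 0.13 (adjusted p = 0.37). A second Mdm2 probe set did not show the early fall (-0.08 ± 0.07, adjusted p = 0.35), and the remaining one was too dim to be tested.

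Mdm4 read 10.14, 10.66 and 10.87 at the lowest, median and highest of normal tissue. It read 9.10, 10.24 and 10.87 in early lymphomas, and 9.67, 10.39 and 11.58 in late ones. Of the early lymphomas 12 of 25 lay below every normal tissue and none above. Mdm4 fell by 0.51 ± 0.15 in early lymphomas (adjusted p = 0.0023), and late lymphomas were 0.31 ± 0.13 above early ones, short of the threshold (adjusted p = 0.089). The next 2 Mdm4 probe sets differed from normal tissue by -0.08 ± 0.10 and -0.00030 ± 0.13 in early lymphomas, so 1 of the 3 probe sets tested was called, and the mean of all Mdm4 probe sets was not (-0.10, adjusted p = 0.32). The fourth was too dim to be tested. After centring each array on its median the early falls of both regulators were no longer called (Mdm2 -0.16, adjusted p = 0.40, and Mdm4 -0.17, adjusted p = 0.33), and with the 6 young normal tissues alone as controls that of Mdm2 was not (-0.33, adjusted p = 0.13).

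Cdkn1a, the p21 inhibitor that holds cells in G1, fell in early lymphomas and had a long upper tail in late ones. It read 8.22, 9.46 and 9.97 at the lowest, median and highest of normal tissue. It read 7.86, 8.50 and 10.27 in early lymphomas, and 7.53, 8.89 and 12.49 in late ones. In early lymphomas 22 of 25 lay below the normal median, whereas the late range ran from below to far above normal tissue. Cdkn1a fell by 0.65 ± 0.21 in early lymphomas (1.57-fold, adjusted p = 0.0064), a call lost after centring on the median (-0.31, adjusted p = 0.20) and after quantile normalization (-0.47, adjusted p = 0.050). Late minus normal was -0.23 ± 0.37 (adjusted p = 0.62) and late minus early 0.42 ± 0.26 (adjusted p = 0.23). The second, dimmer probe set also fell in early lymphomas (-0.83 ± 0.37, adjusted p = 0.046).

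Ccng1, cyclin G1, which recruits a phosphatase to Mdm2 and is a direct p53 target, was called in none of the 3 comparisons. It read 11.16, 11.32 and 11.61 at the lowest, median and highest of normal tissue. It read 10.72, 11.22 and 11.92 in early lymphomas, and 10.13, 11.23 and 13.19 in late ones. The medians lay close together, and the range was widest in late lymphomas and narrowest in normal tissue. Early minus normal was -0.09 ± 0.10 (adjusted p = 0.46), late minus normal -0.02 ± 0.21 (adjusted p = 0.96) and late minus early 0.07 ± 0.15 (adjusted p = 0.76). The early difference from normal tissue turned with the scaling, being -0.26 after quantile normalization (adjusted p = 0.025) and 0.25 after centring (adjusted p = 0.041). Its deviation from the group median was 0.28 ± 0.10 larger in late than in early lymphomas, just short of the threshold (adjusted p = 0.054). A second of the 3 Ccng1 probe sets passed that test (0.37 ± 0.12, adjusted p = 0.045), and the brightest one did with a filter of 30 arrays (adjusted p = 0.046).

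Bbc3 and Pmaip1 encode Puma and Noxa, the BH3-only proteins through which p53 triggers apoptosis, and they differed in how they related to normal tissue. Bbc3 read 8.64, 9.02 and 9.48 at the lowest, median and highest of normal tissue. It read 8.04, 8.96 and 9.52 in early lymphomas, and 7.76, 9.35 and 11.45 in late ones. Late lymphomas lay on both sides of normal tissue, with 9 of 25 above and 6 below every normal tissue. Late minus early was 0.48 ± 0.19, short of the threshold (adjusted p = 0.063), early minus normal was -0.21 ± 0.15 (adjusted p = 0.21) and late minus normal 0.27 ± 0.28 (adjusted p = 0.43). The early difference from normal tissue had no settled sign, being 0.03 after quantile normalization and 0.13 after centring.

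Pmaip1 read 9.31, 9.58 and 10.22 at the lowest, median and highest of normal tissue. It read 7.81, 8.62 and 9.80 in early lymphomas, and 7.44, 9.25 and 11.03 in late ones. In early lymphomas 19 of 25 lay below every normal tissue and none above, and in late ones 13 lay below and 2 above. Pmaip1 fell by 0.89 ± 0.19 in early lymphomas (1.85-fold, adjusted p = 9.0e-05), under every alternative tried for that comparison. Late minus normal was -0.51 ± 0.28 (adjusted p = 0.12), and late minus early 0.37 ± 0.21 (adjusted p = 0.19).

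Sesn2, sestrin 2, which restrains mTORC1 under stress and answers both p53 and the amino acid response, was the only gene of the list called between the onset groups. It read 6.80, 8.44 and 8.71 at the lowest, median and highest of normal tissue. It read 5.66, 7.16 and 8.83 in early lymphomas, and 6.11, 8.38 and 9.15 in late ones. Early lymphomas were the low group: 24 of 25 lay below the normal median, and 22 of 25 late lymphomas lay above the early median. Sesn2 was 0.94 ± 0.21 higher in late than in early lymphomas (1.92-fold, adjusted p = 0.0018). It fell by 1.17 ± 0.26 in early lymphomas against normal tissue (2.25-fold, adjusted p = 0.00015), and late lymphomas differed from normal tissue by -0.23 ± 0.25 (adjusted p = 0.46). The second Sesn2 probe set gave 1.19 ± 0.21 for late minus early (adjusted p = 0.00030) and -1.19 ± 0.23 for early minus normal (adjusted p = 1.8e-05). Sesn2 was dim in early lymphomas, with median intensities of 127 and 85 for the 2 probe sets. Over the 60 arrays the brightest probe set lay above the median of its own array in 39, and the second in 26. Both calls of the brightest probe set were kept under every alternative tried.

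**Figure D2:**
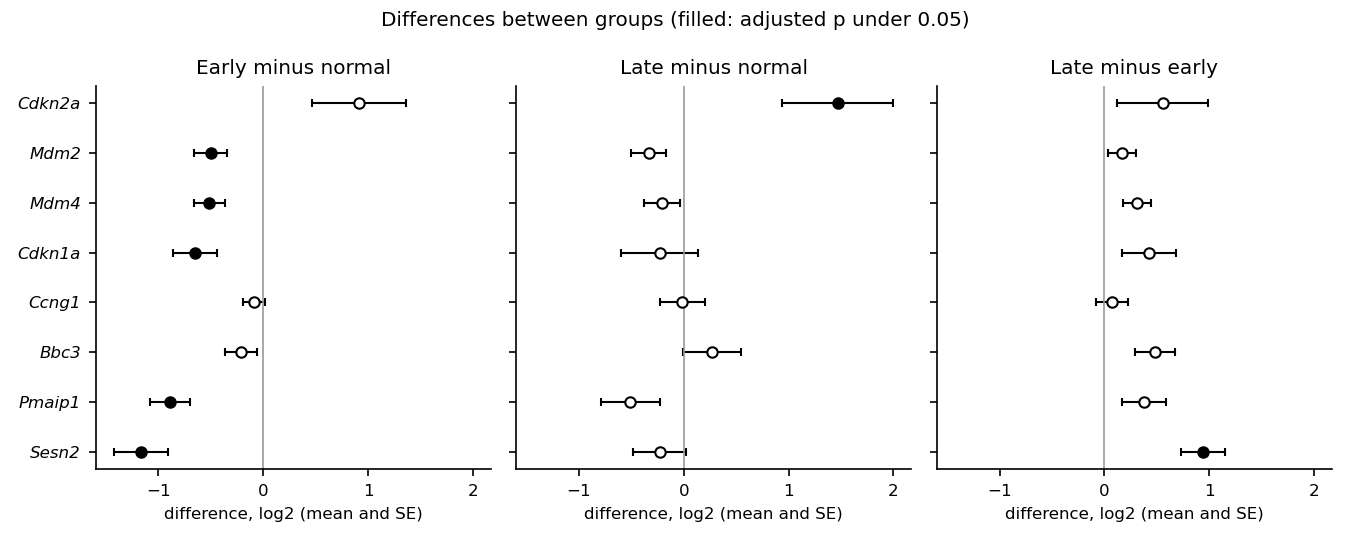
Differences between groups for each measured gene, as log2 difference of means with its standard error from limma, over 25 early lymphomas, 25 late lymphomas and 10 normal tissues. Filled points have an adjusted p under 0.05: Mdm2, Mdm4, Cdkn1a, Pmaip1 and Sesn2 lower in early lymphomas than in normal tissue, Cdkn2a higher in late lymphomas than in normal tissue, and Sesn2 higher in late than in early lymphomas.

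Counts of calls on the list are set here against all genes tested. Between the onset groups 1 of 8 genes was called higher in late lymphomas and 0 lower, where 11.1% of all genes were called higher and 12.7% lower. All 8 estimates were above 0, with a median of 0.40 against 0.01 over all genes. In early lymphomas against normal tissue 5 of 8 were called lower and 0 higher, where 38.8% of all genes were lower and 30.1% higher, and the median was -0.51 against -0.10. That count depends on scaling: after centring on the median 2 genes were lower (Pmaip1 and Sesn2) and 2 higher (Cdkn2a and Ccng1), where 24.2% of all genes were lower and 47.3% higher. After quantile normalization 5 were lower (Mdm2, Mdm4, Pmaip1, Ccng1 and Sesn2) and 1 higher (Cdkn2a), where 33.7% were lower and 38.6% higher. In late lymphomas against normal tissue 1 of 8 was called higher and 0 lower, where 24.7% of all genes were higher and 30% lower, with a median of -0.22 against -0.05. These 3 comparisons share samples with one another and are not independent. The split of all calls depends on scaling: higher calls made up 43.7% of calls in early and 45.2% in late lymphomas against normal tissue as deposited, and 66.2% and 69.1% after centring each array on its median, which moved the median of all genes to 0.24 and 0.23. After quantile normalization they made up 53.3% and 55.8%. Between late and early lymphomas they made up 46.7% as deposited and 35% after centring.

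Transcripts of cell type markers and of mitotic cycle genes differed between these groups. In early lymphomas against normal tissue 9 of 9 T cell markers, 9 of 10 stroma and endothelium markers, 8 of 9 macrophage markers and 7 of 9 plasma cell markers fell, and 9 of 9 mitotic cycle genes rose. The mean of the T cell markers ranged from 10.49 to 11.55 in normal tissue, 5.98 to 8.73 in early and 6.59 to 11.53 in late lymphomas. The mean of the stroma and endothelium markers ranged from 9.48 to 12.01, 8.84 to 10.31 and 8.63 to 10.74 in the same order. Between late and early lymphomas 6 of 9 plasma cell, 6 of 9 T cell and 4 of 9 macrophage markers were higher, 5 of 9 B lineage markers were lower, and 9 of 9 mitotic cycle genes were lower. The part of these cells in the results for Mdm2, Mdm4, Cdkn1a, Pmaip1 and Sesn2 was not tested beyond the left-out tumours given here. B lineage markers averaged 9.54 to 12.32 in early and 8.37 to 12.52 in late lymphomas, against 11.62 to 12.43 in normal tissue. Late lymphoma 130 had the lowest B lineage mean of all arrays (8.37) together with a T cell mean of 11.53, at the top of normal tissue. Array medians of the deposited intensities ran from 122 to 206 over the lymphomas and 183 to 198 over normal tissue.

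In the upper tail of Cdkn1a in late lymphomas, the 4 highest values lay in tumours rich in plasma cell transcripts. Late lymphomas 120, 125, 129, 137 and 138 had plasma cell marker means of 12.93 to 13.44, and every other lymphoma stayed at or under 11.38. Their Cdkn1a read 12.49, 11.32, 8.82, 10.97 and 10.46, so 4 of the 5 were the highest of all lymphomas and 1 was not. Their Bbc3 read 10.59, 9.82, 9.49, 10.40 and 10.39, and their Mdm4 10.93, 11.58, 10.62, 11.02 and 10.71. Outside these 5 tumours, late lymphoma 136 (10.25) and early lymphoma 6 (10.27) also lay above every normal tissue in Cdkn1a. Their plasma cell marker means were 9.55 and 9.31. Late lymphoma 120 was the highest of all lymphomas for Mdm2, Cdkn1a, Ccng1 and Sesn2 at once. Without these 5 tumours, chosen by their markers, late lymphomas were lower than normal tissue in Mdm2 (-0.48, adjusted p = 0.0065), Mdm4 (-0.35, adjusted p = 0.040), Cdkn1a (-0.64, adjusted p = 0.017) and Pmaip1 (-0.73, adjusted p = 0.016), so 5 of 8 genes were called in place of 1. Without late lymphoma 120 alone 2 of 8 were called, with Mdm2 at -0.38 (adjusted p = 0.036). The share of all genes called after leaving out tumours is not given here, so these counts are not read as particular to the list. With all 25 late lymphomas 30% of all genes were lower than in normal tissue and 24.7% higher.

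**Figure D3:**
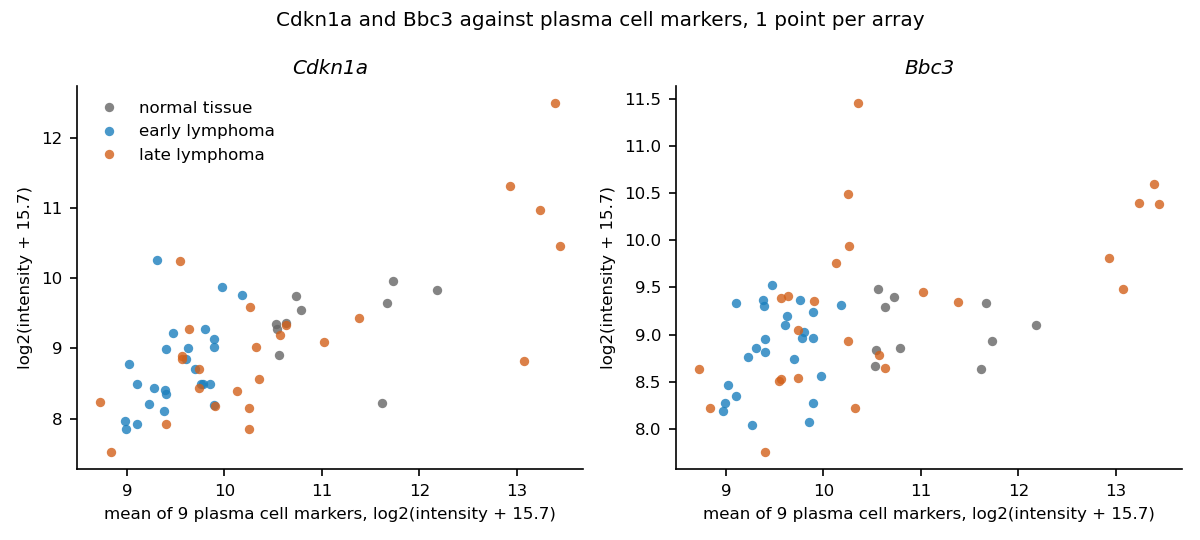
Cdkn1a and Bbc3 against the mean of 9 plasma cell markers, both as log2(intensity + 15.7), with 1 point per array. The 5 late lymphomas at the right have marker means of 12.93 to 13.44, and 4 of them hold the 4 highest Cdkn1a values, from 10.46 to 12.49. The highest Bbc3 value, 11.45, belongs to a late lymphoma with a marker mean of 10.36.

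In a fit of the slope on Cdkn2a with onset group as a term 0 of 7 genes were called in limma, where 1.34% of all genes were called. An unadjusted p under 0.05 was found for 1751 of all 12598 genes and for 3 of these 7. These 3 ran downward per unit of log2 Cdkn2a: Ccng1 by -0.12 ± 0.04 (adjusted p = 0.17), Mdm4 by -0.11 ± 0.04 (adjusted p = 0.18) and Pmaip1 by -0.13 ± 0.06 (adjusted p = 0.38). The second Mdm4 probe set was called (-0.14 ± 0.03, adjusted p = 0.024), and the next one was not (-0.03 ± 0.04, adjusted p = 0.84). Leaving out 5 late lymphomas changed the count to 1: Mdm4 was called without the 5 lowest in B lineage markers (-0.14, adjusted p = 0.027), and Ccng1 without the 5 richest in plasma cell markers (-0.12, adjusted p = 0.043). The slopes of Mdm2 (0.02 ± 0.04), Cdkn1a (0.01 ± 0.08), Bbc3 (-0.09 ± 0.06) and Sesn2 (0.07 ± 0.07) had adjusted p-values from 0.60 to 0.99, and that of Cdkn1a turned negative under 7 alternatives.

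Correlations with Cdkn2a were computed 28 times, for 7 genes over 4 sets of tumours, and no r had a p under 0.05 after Benjamini-Hochberg adjustment over the 28. Over the 50 lymphomas, each onset group centred on its mean, Mdm4 had r = -0.36 (permutation p = 0.012, adjusted 0.074) and rho = -0.39 (permutation p = 0.0066), and r = -0.34 without the 2 tumours farthest from the median. Ccng1 had r = -0.37 (permutation p = 0.012, adjusted 0.074) and rho = -0.32 (permutation p = 0.031), and r = -0.29 (permutation p = 0.053) without those 2 tumours, late lymphomas 123 and 114. Pmaip1 had r = -0.27 (permutation p = 0.066, adjusted 0.18) and rho = -0.19 (permutation p = 0.20). Without the 5 early lymphomas above the gap the values were -0.28 for Mdm4 (permutation p = 0.10), -0.33 for Ccng1 (permutation p = 0.071) and -0.38 for Pmaip1 (permutation p = 0.023). All of these values kept their sign, and those of Mdm4 and Ccng1 were nearer 0 without the 5 early lymphomas. The remaining 4 genes had r from -0.19 to 0.14.

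**Figure D4:**
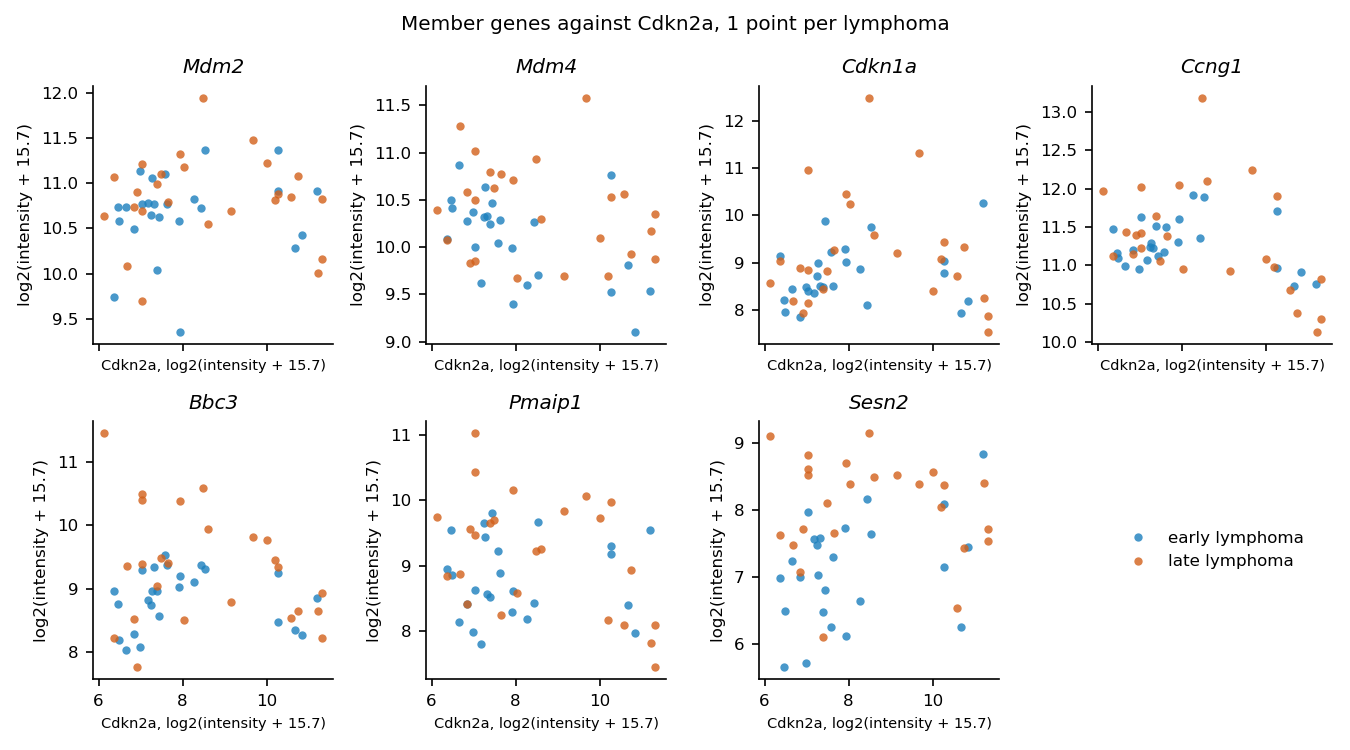
Each of 7 genes against Cdkn2a, both as log2(intensity + 15.7), with 1 point per lymphoma (25 early, 25 late). The 5 early lymphomas from 10.27 upward in Cdkn2a stand apart from the other 20, and the 3 late lymphomas from 11.21 upward lie low in Cdkn1a, Pmaip1 and Ccng1.

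Among the 20 early lymphomas below the gap, a set cut after the Cdkn2a values were seen, Bbc3 and Ccng1 had positive correlations with Cdkn2a. Over all 25 early lymphomas, which fall into these separate sets, r was -0.0031 for Bbc3, -0.23 for Ccng1, 0.24 for Cdkn1a and -0.54 for Mdm4, so the positive values of Bbc3 and Ccng1 appear only without the 5 tumours above the gap. In the 25 late lymphomas r was -0.28 for Bbc3 and -0.44 for Ccng1, and the contrast with these 20 tumours was not tested. Bbc3 had r = 0.62 (permutation p = 0.0035, adjusted 0.066) and rho = 0.68 (permutation p = 0.0013, adjusted 0.038), and r = 0.56 remained without the 2 farthest tumours. Ccng1 had r = 0.61 (permutation p = 0.0047, adjusted 0.066) and rho = 0.58 (permutation p = 0.0088), and r = 0.54 without them. Cdkn1a had r = 0.43 (permutation p = 0.059, adjusted 0.18) and rho = 0.49 (permutation p = 0.029). Mdm4 kept its downward direction (r = -0.54, permutation p = 0.013, adjusted 0.074, rho = -0.53, permutation p = 0.018). Fitted over all probe sets in these 20 tumours, 0 of 7 genes were called in limma, where 0.0873% of all genes were. Bbc3 (0.45 ± 0.13), Ccng1 (0.26 ± 0.08), Mdm4 (-0.32 ± 0.11) and Cdkn1a (0.37 ± 0.17) had unadjusted p-values under 0.05 and adjusted ones of 0.11, 0.13, 0.18 and 0.30. In this fit 2170 of all 12598 genes had an unadjusted p under 0.05. The 5 early lymphomas above the gap, 6, 29, 23, 28 and 20, read 10.76, 10.91, 10.72, 11.71 and 10.97 in Ccng1 and 8.85, 8.27, 8.34, 9.24 and 8.47 in Bbc3. Of these only early lymphoma 28 lay above the early medians of both genes. The gap was found in these data, so the split is a description of these tumours. Neither the permutation p-values nor the adjustment over the 28 correlations covers the choice of this cut. Among the 20, early lymphomas 3, 1, 5 and 2 were high in Cdkn2a (8.52, 8.44, 8.28 and 7.91) and arose young, at 47, 32, 56 and 42 days. Early lymphoma 24 (7.94) arose at 74 days, and early lymphoma 4 (6.37) at 48 days. The part of age of onset in these correlations was not tested.

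In the 25 late lymphomas Pmaip1 had r = -0.47 (permutation p = 0.020, adjusted 0.091) and rho = -0.37 (permutation p = 0.071), and Ccng1 had r = -0.44 (permutation p = 0.027, adjusted 0.095) and rho = -0.50 (permutation p = 0.012). Without the 2 farthest tumours these were r = -0.31 (permutation p = 0.15) and r = -0.34 (permutation p = 0.11), both closer to 0 and of the same sign. In limma 0 of 7 genes were called within the late group, where 0.0318% of all genes were, with adjusted p = 0.33 for Pmaip1 and 0.38 for Ccng1. The 3 late lymphomas highest in Cdkn2a, 123 (11.31), 114 (11.31) and 121 (11.21), read 7.53, 7.86 and 8.24 in Cdkn1a, 7.44, 8.08 and 7.82 in Pmaip1 and 10.30, 10.82 and 10.13 in Ccng1. All 3 lay below every normal tissue in Pmaip1 and Ccng1, and 2 of the 3 in Cdkn1a. Of all 25 late lymphomas 13 did so in Pmaip1, 12 in Ccng1 and 5 in Cdkn1a. At the other end, late lymphoma 133, lowest in Cdkn2a (6.13), was the highest of all in Bbc3 (11.45). The next lowest late lymphoma in Cdkn2a, 118 (6.36), read 8.23 in Bbc3, below every normal tissue. The difference of the slope between onset groups was called for 0 of 7 genes and for 0% of all genes in limma, with 945 of 12598 genes at an unadjusted p under 0.05. Pmaip1 was among these (late minus early slope -0.27 ± 0.13, unadjusted p = 0.041, adjusted p = 0.58).

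**Figure D5:**
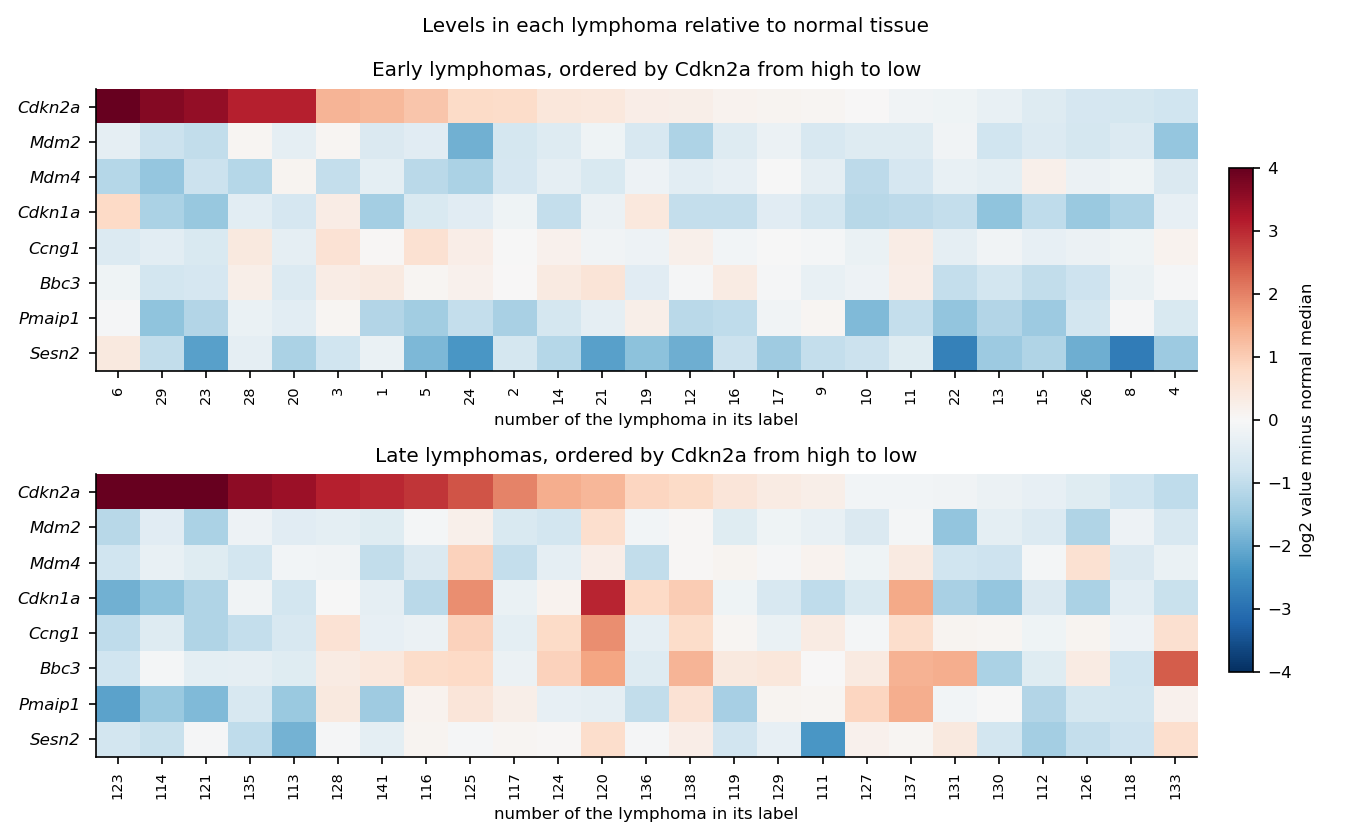
Level of each gene in each lymphoma minus the median of the 10 normal tissues, on the log2 scale, with lymphomas ordered by Cdkn2a and named by the number in their label. Colours run from 4 below (blue) to 4 above (red), and differences beyond that are drawn at the limit. Late lymphomas 123, 114 and 121 are low in Pmaip1 and Ccng1, and late lymphoma 120 is high in Cdkn1a, Ccng1 and Bbc3.

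The other 7 genes were also set against each other. Of 21 pairs over the 50 lymphomas, centred on onset group, 20 had a positive r, with a median of 0.33, and 12 had an adjusted permutation p under 0.05. The same share over other gene pairs was not computed, so these counts are not read as particular to the list. Of the 12, Mdm2 with Ccng1 had r = 0.27 (permutation p = 0.079) without the 2 tumours farthest from the median of Mdm2. Mdm4 with Ccng1 had r = 0.25 (permutation p = 0.105) without the 2 farthest from the median of Mdm4. The other called pairs kept an unadjusted permutation p under 0.05 without the 2 farthest. Within early lymphomas r was negative for 4 of the 6 pairs of Mdm4, those with Cdkn1a (-0.20), Bbc3 (-0.27), Ccng1 (-0.22) and Sesn2 (-0.25). The 3 pairs described next were picked for their r and have an adjusted p of at most 0.00063 over the 21. The closest pair was Bbc3 with Ccng1 (r = 0.68, permutation p = 1e-05, the smallest that 100000 resamples can give, and rho = 0.72 with the same p), and r was 0.64 without the 2 tumours farthest from the median of Bbc3. Cdkn1a and Ccng1 had r = 0.59 (permutation p = 9.0e-05) and rho = 0.40 (permutation p = 0.0071), but r = 0.37 (permutation p = 0.016) without the 2 farthest. Mdm2 and Cdkn1a had r = 0.53 (permutation p = 8.0e-05) and rho = 0.48 (permutation p = 0.00057), and r = 0.52 without the 2 farthest. Within early and late lymphomas r was 0.19 and 0.73 for Mdm2 with Cdkn1a, and 0.18 and 0.70 for Cdkn1a with Ccng1. For Bbc3 with Ccng1 it was 0.66 and 0.69. The contrast between onset groups was not tested for these pairs. The values of a pair come from the same arrays and share their scaling.

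The genes of the whole array most like Cdkn2a over the 50 centred lymphomas were Tspan3 (r = 0.69), Ppp3ca (0.63), Fam216a (0.62), Rragc (0.62) and Ak4 (0.62). The most opposite were Slc43a1 (-0.71), Prodh (-0.69), Rpl22l1 (-0.69), Pigbos1 (-0.68) and Trmo (-0.66). These were picked for the size of r among 12598 genes and carry no test. Against them Ccng1 ranked 386 from the bottom, Mdm4 413 and Pmaip1 989.

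Age of onset was also set against each gene within a group. In early lymphomas 0 of 8 genes had a called slope on log2 age in limma, where 9.29% of all genes did. An unadjusted p under 0.05 was found for 3272 of all 12599 genes and for 2 of these 8, Sesn2 and Bbc3 (-0.59 ± 0.28 per doubling of age, adjusted p = 0.19). In late lymphomas 0 of 8 were called, where 0.0159% of all genes were. An unadjusted p under 0.05 was found there for 3050 of all 12599 genes and for 1 of these 8. Sesn2 was the gene with the lowest p in both, at -1.10 ± 0.48 per doubling of age in early lymphomas (adjusted p = 0.15) and 1.06 ± 0.35 in late ones (adjusted p = 0.13). The second Sesn2 probe set gave 0.34 ± 0.47 and 0.46 ± 0.44, with adjusted p-values of 0.69 and 0.54. Among the other probe sets of the list 1 was called, the dimmest tested one of Mdm4 in early lymphomas (-0.67 ± 0.21, adjusted p = 0.043). Spread around the group median was called for 0 of 8 genes, where 11.8% of all genes were called. Its unadjusted p was under 0.05 for 3906 of all 12599 genes and for 2 of these 8, Ccng1 and Bbc3 (0.32 ± 0.12 larger in late lymphomas, adjusted p = 0.073).

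Other p53 targets were called in both directions between the onset groups. Of 32 listed, 27 were tested, 1 was higher in late lymphomas and 3 were lower, with a median of 0.01, where 11.1% of all genes were higher and 12.7% lower, so the share of lower calls is near that of all genes. Btg2, an antiproliferative gene, rose by 0.72 ± 0.20 (adjusted p = 0.0074), but was not called without the 5 late lymphomas richest in plasma cell markers (0.45, adjusted p = 0.10). The translesion polymerase Polh fell by 0.42 ± 0.11 (adjusted p = 0.0044) and the G2 gene Gtse1 fell by 0.45 ± 0.14 (adjusted p = 0.019). With RNA quality ratios as covariates Btg2 (adjusted p = 0.090), Polh (adjusted p = 0.0504) and Gtse1 (adjusted p = 0.074) were not called. The remaining lower gene, Aen, was outside the naming rule and is named to complete the count (-0.17 ± 0.06, adjusted p = 0.047). Along Cdkn2a 2 of 27 were called, where 1.34% of all genes were. These 2 were Plk2 (0.46 ± 0.10 per unit, adjusted p = 0.016) and Ddit4, a sestrin-like brake on mTORC1 (0.25 ± 0.07, adjusted p = 0.042). Neither was called without the 5 early lymphomas above the gap (adjusted p = 0.099 and 0.23) or on ranks of Cdkn2a (adjusted p = 0.13 and 0.22). Ddit4 also missed the threshold after quantile normalization (adjusted p = 0.054), after centring (adjusted p = 0.059), without the filter (adjusted p = 0.061), with RNA quality ratios as covariates (adjusted p = 0.060) and without the 2 tumours farthest from the median of Cdkn2a (adjusted p = 0.059).

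Kinases and cofactors of p53 were lower in late lymphomas or not called. Of 16 tested, 5 fell and 0 rose, with a median of -0.13, where 12.7% of all genes fell and 11.1% rose. Chek1, the S phase checkpoint kinase, fell by 0.50 ± 0.11 (adjusted p = 0.0016), and Atr, the kinase that activates it, fell by 0.40 ± 0.08 (adjusted p = 0.0011). By the mean of all its probe sets Atr was not called (-0.23, adjusted p = 0.066). The other 3 were Atm, Usp7 and Daxx, likewise named to complete the count. These falls moved with those of the 9 mitotic cycle genes, whose part was not tested. None of the 16 was called along Cdkn2a in limma, and 3 had an unadjusted p under 0.05, where 1751 of all 12598 genes had one.

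Among regulators and partners of Arf, 6 of 16 tested fell in late lymphomas and 1 rose, with a median of -0.11, where 12.7% of all genes fell and 11.1% rose. Ezh2, the Polycomb methyltransferase that silences the Cdkn2a locus, fell by 0.71 ± 0.19 (adjusted p = 0.0054), and E2f3, a cell cycle activator that binds the Arf promoter, fell by 0.60 ± 0.12 (adjusted p = 0.00058). Cbx7, another Polycomb protein of this locus, rose by 0.38 ± 0.12 (adjusted p = 0.018), but was not called without the 5 late lymphomas richest in plasma cell markers (0.29, adjusted p = 0.12). With RNA quality ratios as covariates Ezh2 (adjusted p = 0.055) and Cbx7 (adjusted p = 0.14) were not called. The other 4 that fell were Rnf2, Suz12, Eed and E2f2, also outside the naming rule. In limma 0 of 16 were called along Cdkn2a, and 2 had an unadjusted p under 0.05, where 1751 of all 12598 genes had one. These falls moved with mitotic cycle genes, 9 of 9 of which fell, with means of 11.62 to 12.24 in early and 9.42 to 12.16 in late lymphomas, and their part was not tested.

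Of the 5 neighbours of Cdkn2a on its chromosome, 3 were tested. Mtap, a methionine salvage enzyme, fell by 0.42 ± 0.15 in late lymphomas (adjusted p = 0.031), while Klhl9 (-0.06 ± 0.07, adjusted p = 0.52) and the RNA-binding gene Elavl2 (0.05 ± 0.13, adjusted p = 0.83, with its sign turned by scaling) were not called. Cdkn2b, which encodes p15, and Dmrta1 were too dim to be tested. None of the 3 was called along Cdkn2a in limma, nor had an unadjusted p under 0.05. Mtap was not called without the 5 late lymphomas richest in plasma cell markers (-0.27, adjusted p = 0.24), without the 5 lowest in B lineage markers (-0.38, adjusted p = 0.067), with RNA quality ratios as covariates (-0.27, adjusted p = 0.29) or by the mean of its probe sets (-0.45, adjusted p = 0.075).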

How the data were processed

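Total RNA of 60 tissues was measured on Affymetrix Mouse430_2 arrays. The authors deposited linear intensities from MAS5, as named without a version in the submitters' processing notes. Trimmed by 2% at each end, every array has a mean of 500. Groups come from the labels. Values were taken as log2(intensity + 15.7), the constant being the median of the table (157) over 10, without rescaling. A probe set was kept if at least 10 arrays read it above that array's median, without 64 control probe sets, which left 27094 of 45101. Each fit ran over all of them in limma 3.58.1 (R 4.3.3), two-sided, with Benjamini-Hochberg adjusted p-values, after tests on simulated data. Counts are over genes, each by its brightest probe set. Correlations have two-sided permutation tests with 100000 resamples. Plots used Python 3.11.15 and matplotlib 3.10.9. The number of arrays limits the precision.

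Members, lists and alternatives were chosen with earlier results of these data known. The text names all members, up to 2 called genes each way per list between onset groups and along Cdkn2a, all tested locus neighbours, and the 5 genes at each end of r with Cdkn2a. Alternatives were other constants, filters, scalings, covariates, controls and left-out tumours; those at the gap, at the Cdkn1a maximum and the fits within tumour sets were added after seeing the data. Early lymphomas and normal tissues share 9 label numbers. Same-numbered samples deviated with r from -0.11 to 0.08, which gives no sign of pairing. A shared litter or day could leave no such trace, so pairing is not excluded, and the main fits used none.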

Additional observations from a re-analysis of the deposited data

Results flagged for a closer look

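Among the 10 normal tissues, 2 of the 8 genes had a sample whose gap to the nearest of the others was large for the range of the group, by Dixon's test at 95%. Cdkn2a read 6.05 in normal tissue 7, the spleen, against 6.87 for the next lowest. Sesn2 read 6.80 in normal tissue 3, a young lymph node, against 8.18 for the next lowest. Chance marks about 1 in 20 such groups. Leaving out the spleen changed no call in either comparison with normal tissue.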

How the results depend on the processing

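The cause of a change was not tested. Leaving out the spleen or taking a constant 10 times smaller changed no call of a listed gene's difference or slope. Counts of the list's genes called moved as follows, given here without the share of all genes called under each alternative. Late against normal tissue went from 1 to 2 after quantile normalization and without late lymphoma 120 (Mdm2 gained in both), to 5 without the 5 late lymphomas richest in plasma cell markers, and to 0 with the 4 old normal tissues alone. Early against normal tissue went from 5 to 6 after quantile normalization (Cdkn1a lost, Cdkn2a and Ccng1 gained) and with RNA ratios (Cdkn2a gained). It went to 4 after centring (Mdm2, Mdm4 and Cdkn1a lost, Cdkn2a and Ccng1 gained). It also went to 4 with the 6 young normal tissues alone (Mdm2 lost) and with the mean of probe sets (Mdm4 lost). It went to 3 with a replicate block on the shared label numbers, which gave no sign of pairing samples. There Mdm2 (-0.43, adjusted p = 0.070) and Cdkn1a (-0.55, adjusted p = 0.069) were lost. The spread count went from 0 to 1 with a filter of 30 arrays (Ccng1) and with the mean of a gene's probe sets (Mdm4, 0.18). The slope count went from 0 to 1 without the 5 late lymphomas lowest in B lineage markers and without the 5 richest in plasma cell markers. Of the 7 correlations over all lymphomas 2 had an unadjusted permutation p under 0.05, and 1 did without the 2 tumours farthest from the median of Cdkn2a and 1 without the 5 early lymphomas above the gap.

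Signs turned in these cases, all but 1 of them without a call. With the constant 4 times larger Cdkn1a had a slope on Cdkn2a of -0.00535 and r of -0.00866. After quantile normalization Bbc3 was 0.027 in early and Sesn2 0.060 in late lymphomas against normal tissue, Elavl2 -0.019 between onset groups, and Cdkn1a had a slope of -0.011 and r of -0.019. After centring on the median Bbc3 was 0.13 and Ccng1 0.25 (called) in early lymphomas against normal tissue, Mdm4 0.072, Cdkn1a 0.050, Ccng1 0.26 and Sesn2 0.050 in late ones, Elavl2 -0.015 between onset groups, and Cdkn1a had a slope of -0.00479 and r of -0.0086. With RNA ratios Ccng1 was -0.046 between onset groups and Cdkn1a had a slope of -0.0047. With the mean of probe sets Mdm4 was 0.11 and Ccng1 0.034 in late lymphomas against normal tissue, Elavl2 -0.044 between onset groups, and Cdkn1a had a slope of -0.028 and r of -0.039. Without the 5 lowest in B lineage markers Cdkn1a had a slope of -0.0306 and r of -0.0585. Without the 5 richest in plasma cell markers Ccng1 was -0.12 and Elavl2 -0.00178 between onset groups. Without the 5 early lymphomas above the gap Cdkn1a had a slope of -0.021 and r of -0.030, and Sesn2 a slope of -9.73e-05 and r of -0.00018. Without late lymphoma 120 Ccng1 was -0.0034 between onset groups.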

Other observations

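Pmaip1 read 9.31 to 9.58 in the 6 young lymph nodes and 9.77 to 10.22 in the 4 old normal tissues, so the ages did not overlap in these 10 samples. This gene was singled out after its values were seen, and the difference was not tested. Old normal tissues also had higher plasma cell marker means (11.62 to 12.18) than young ones (10.53 to 10.79).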
